A study of Mus musculus with 8 samples.

Results

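Chemokines are small secreted proteins that direct the migration of leukocytes, and they act through G protein-coupled receptors on the surface of the migrating cells. The genes were chosen by symbol, as those named Ccl, Ccr, Cxcl or Cxcr with a number, plus Cx3cl1, Cx3cr1, Xcl1 and Xcr1, with 1 exception. The rule found 57 genes among the 23337 symbols of the count files, of which 39 encode ligands and 18 encode receptors. Genes were tested when 10 or more counts were present in at least 2 samples, which 38 of the 57 reached (23 ligands and 15 receptors) out of 14379 tested genes.

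The samples were livers of 12-week-old C57BL/6 mice in 4 groups of 2 samples each, 8 in all. HRD1Alb mice (HRD1 f/f with Alb-Cre+, genotype Hrd1-/- in the labels) lack the ER-associated ubiquitin ligase HRD1 where the albumin enhancer and promoter drive Cre. The paper's supplement calls the knockout hepatocyte-specific, and the paper states that the deletion begins early in liver development. Whether other cells of the liver kept HRD1 was not tested here. The controls, called WT, carried HRD1 f/f without the Cre. Livers of each genotype were taken from mice fasted overnight and from mice that had been fed again for 4 h, so that the comparisons ask how the chemokine system differed between genotypes in each feeding state and how it changed with refeeding in each genotype. Nothing says that the 2 samples of a group came from separate mice, so the p-values measure only the spread between these samples.

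Chemokines are grouped by the spacing of their first cysteines into CC, CXC, CX3C and XC families. In the liver they are made by hepatocytes, Kupffer cells (the resident macrophages), endothelial cells, stellate cells and the leukocytes that they attract. CCL2 and CCL7 draw monocytes, CXCL1 and CXCL2 draw neutrophils through CXCR1 and CXCR2, CXCL9, CXCL10 and CXCL11 draw activated T cells and NK cells through CXCR3, and CXCL12 retains cells that carry CXCR4.

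Values are CPM, the counts of a gene scaled to a common library size, with library sizes adjusted by the TMM method of edgeR. Total counts ranged from 40210576 to 49117080 per library, at which 3 counts corresponded to 0.0611 to 0.0746 CPM. HRD1 itself, listed as Syvn1, was at 111 and 99.8 CPM in fasted WT and at 32.6 and 31.5 CPM in fasted HRD1Alb liver (log2 fold change -1.72, adjusted p = 0.170 by edgeR's quasi-likelihood test). In refed liver it was at 637 and 305 CPM in WT and at 453 and 132 CPM in the libraries labelled HRD1Alb, which overlap (log2 fold change -0.69, adjusted p = 0.389). The paper reports loss of HRD1 mRNA and protein from HRD1Alb liver, and a rise of liver HRD1 expression early in refeeding. It does not say whether the sequenced samples were among those assayed. The counts are per gene and may include exons outside the deleted part, and they did not check the genotype of the refed libraries labelled HRD1Alb, so every direction drawn from them rests on the label. Replicate 2 of these libraries stood apart from replicate 1: the rank correlation of the pair was 0.956, against 0.990 to 0.995 in the other groups, and the log2 ratio of the pair fell with exon length across genes (rho = -0.51, against -0.12 to 0.0058 in the other groups). Of the 38 tested genes of the chemokine system, 27 were higher in replicate 2, and this included 19 of the 23 ligands and 8 of the 15 receptors, beside 6568 of 14287 of all tested genes. Their median exon length was 2.29 kb, against 4.29 kb for all tested genes, and the part of length in these differences was not tested.

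Most of the chemokine mRNA came from a few genes. Levels of different genes are given here as CPM per kb of merged exon, and shares of summed CPM, which are not scaled to length and weight long genes more, are named as such. Cxcl12 had the highest level per length in each of the 4 groups, with a mean of 63.0 CPM per kb in fasted WT, 39.5 in fasted HRD1Alb, 83.7 in refed WT and 30.9 in the refed libraries labelled HRD1Alb. Ccl9, a CC ligand made by macrophages and other myeloid cells, came next at 13.5, 14.9, 24.9 and 27.9 CPM per kb, and Ccl6, a related ligand of macrophages, followed in each group at 2.72, 11, 2.27 and 10.2 CPM per kb. In the refed libraries labelled HRD1Alb the levels of Cxcl12 and Ccl9 differed by less than the sum of their SDs (1.52 and 2.56 CPM per kb, n = 2). Every tested receptor stood below 1.1 CPM per kb in each group. Cxcl12, with 8.18 kb of exon, made up 85.1% of the summed CPM of the 57 genes in each refed WT library, and 58.9% and 55.6% in the refed libraries labelled HRD1Alb. The sum of the genes other than Cxcl12 and Ccl9 was 34.7 and 37.2 CPM in fasted WT, 65.8 and 64.7 in fasted HRD1Alb, 45.2 and 43.3 in refed WT, and 79.5 and 129 in the refed libraries labelled HRD1Alb, and in each feeding state both libraries of the HRD1Alb group were above both of WT. In bulk liver, fewer cells of a type and less RNA per cell cannot be told apart.

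**Figure D1:**
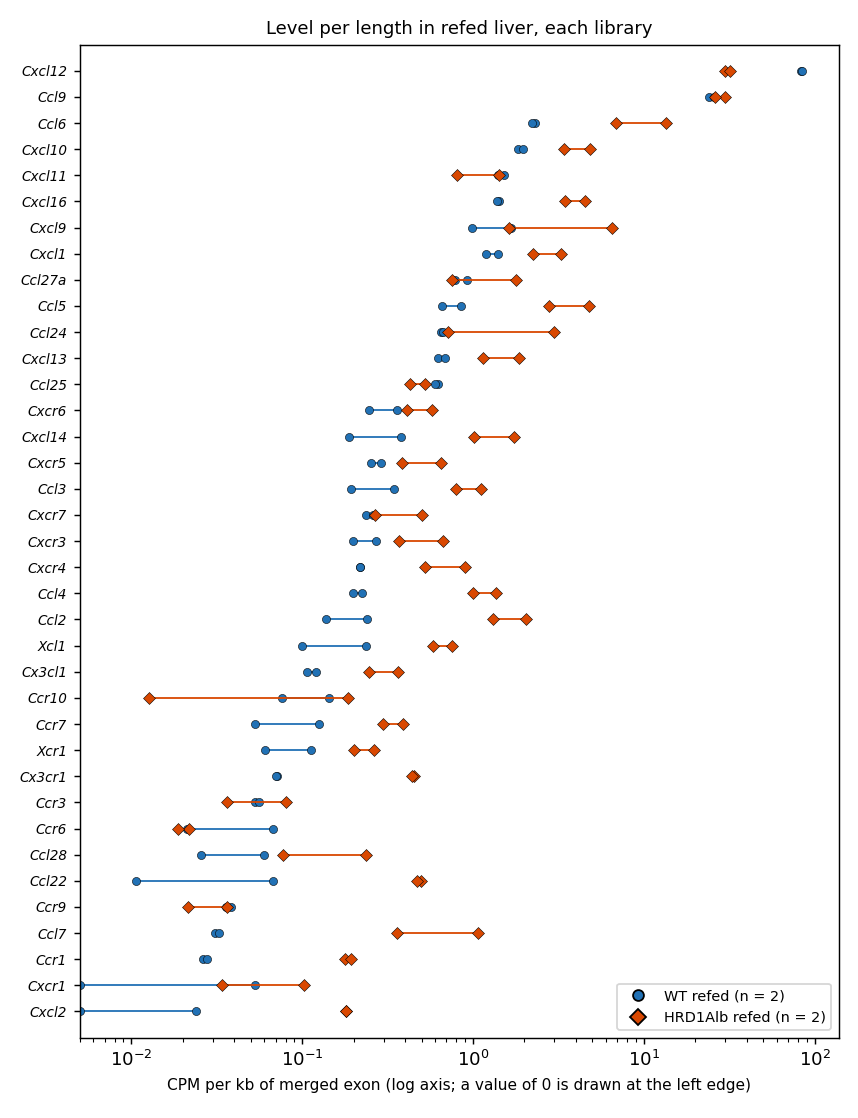
Level of 37 of the 38 tested genes per kb of merged exon (log axis) in the 2 refed WT libraries (blue circles) and the 2 refed libraries labelled HRD1Alb (orange diamonds), with a line joining the libraries of a group. Cxcl12 is the highest gene in both groups and is lower in both libraries labelled HRD1Alb, while most genes in the middle and lower part are higher there.

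The largest number of differences was found between genotypes in refed liver. Of the 38 tested genes 13 passed an adjusted p under 0.05, 12 of them higher and 1 lower in the libraries labelled HRD1Alb, beside 11.9% of all tested genes (7.06% higher and 4.84% lower). By unadjusted p under 0.05 the count was 23 of 38, beside 33.3% of all tested genes. Those that rose were the CC ligands Ccl2, Ccl4, Ccl5, Ccl6, Ccl7 and Ccl22, the CXC ligands Cxcl2, Cxcl10, Cxcl14 and Cxcl16, and the receptors Cxcr4 and Cx3cr1. Cxcl12 fell. By kind, 11 of 23 ligands and 2 of 15 receptors were called. The median log2 fold change was 1.43 over the 38 genes and 0.05 over all genes tested, and was 1.60 for the ligands and 0.93 for the receptors. In 28 of the 38 genes both libraries labelled HRD1Alb were above both WT libraries, and in 2 both were below, beside 30.7% and 30.1% of all tested genes. Of the called genes, Ccl4, Ccl7, Ccl22 and Cxcl2 reached 10 counts only in HRD1Alb libraries. The filter thus admitted them through the genotype where they were high. With 10 or more counts required in every sample, 8 of 23 genes were called, 7 higher and 1 lower, beside 12.3% of all. Their median log2 fold change was then 1.17 for the 23 genes and 0.04 for all genes tested.

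**Figure D2:**
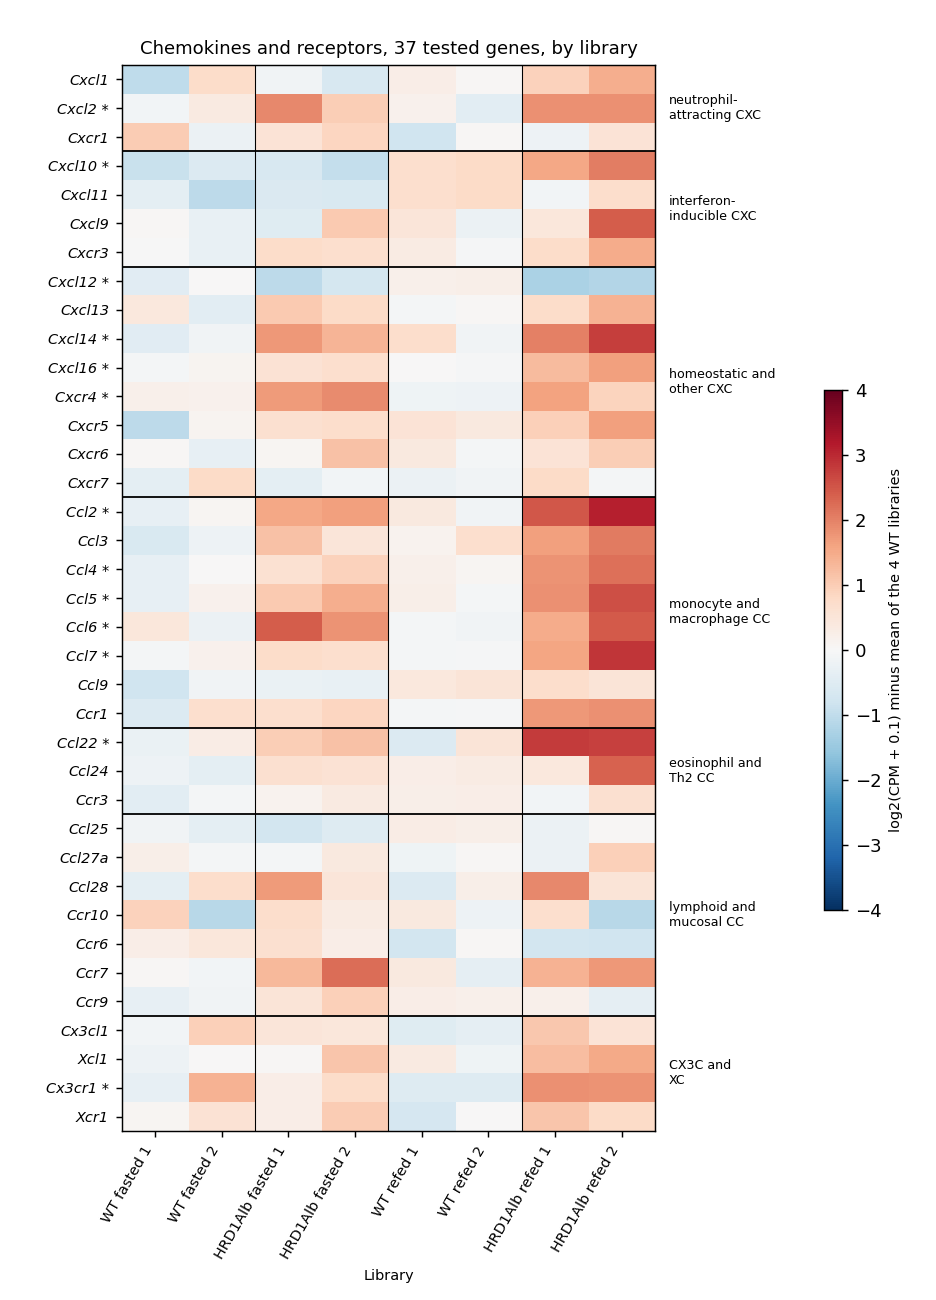
The values of 37 of the 38 tested genes (rows, grouped by role) in the 8 libraries (columns), as log2(CPM + 0.1) minus the mean of the 4 WT libraries, and an asterisk marks the 13 genes called between genotypes in refed liver. The row of Cxcl12 is blue in all 4 HRD1Alb columns, and the block of monocyte and macrophage CC genes is red in the 2 refed HRD1Alb columns apart from Ccl9, which is pale.

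These refed calls rest on the spread that the 4 groups share. With only the 4 refed libraries in the edgeR fit no gene passed (0 of 35 of these genes and 0 of 13897 genes in all, although 22 of the 35 had an unadjusted p under 0.05), and with either refed WT library left out 0 of 38 were called, with 16 and 17 at an unadjusted p under 0.05. The counts over all genes moved in the same fits. Leaving out fasted HRD1Alb replicate 1 or 2 left 4 and 5 calls (2.84% and 2.95% of all tested genes), and leaving out refed HRD1Alb replicate 1 gave 21 of 37 (53.8% of all). Leaving out refed HRD1Alb replicate 2, the library that stood apart, gave 13 of 36 (24.2% of all), of which 12 were among the 13 of all 8 libraries, and the median log2 fold change of the chemokine genes was then 0.93 in place of 1.43.

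Promoters are shown for 4 of the called genes. Cxcl10 and Cxcl2 rose and hold matches to the NF-kB motif (GGG and TTCC with any 3 bases between them). Cxcl14 rose and holds a match to the interferon motif (GAAA and GAAA with any 2 bases between them). Cxcl12, which fell, holds none of the motifs searched, and neither do Ccl6, Ccl22, Cx3cr1 and Cxcr4, which rose. Of the 13 called genes 8 had a promoter sequence, and Ccl2, Ccl4, Ccl5, Ccl7 and Cxcl16 had none. Each sequence is the 250 bases before the RefSeq start of the gene on GRCm38.p6, read 5′ to 3′ on the strand of the gene, and capitals mark motif matches on either strand. They lie at chr5:92348890-92349139 on the minus strand (Cxcl10), chr5:90903649-90903898 on the plus strand (Cxcl2), chr13:56296552-56296801 on the minus strand (Cxcl14) and chr6:117168285-117168534 on the plus strand (Cxcl12).
Cxcl10: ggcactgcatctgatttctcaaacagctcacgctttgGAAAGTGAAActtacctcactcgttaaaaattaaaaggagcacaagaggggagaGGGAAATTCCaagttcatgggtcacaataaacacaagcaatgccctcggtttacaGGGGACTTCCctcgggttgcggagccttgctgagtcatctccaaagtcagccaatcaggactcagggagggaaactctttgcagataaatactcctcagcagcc
Cxcl2: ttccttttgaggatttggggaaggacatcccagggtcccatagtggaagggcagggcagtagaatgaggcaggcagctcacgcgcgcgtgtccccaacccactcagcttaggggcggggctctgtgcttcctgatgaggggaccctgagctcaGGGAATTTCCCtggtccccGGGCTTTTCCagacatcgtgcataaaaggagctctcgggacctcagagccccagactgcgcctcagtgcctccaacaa
Cxcl14: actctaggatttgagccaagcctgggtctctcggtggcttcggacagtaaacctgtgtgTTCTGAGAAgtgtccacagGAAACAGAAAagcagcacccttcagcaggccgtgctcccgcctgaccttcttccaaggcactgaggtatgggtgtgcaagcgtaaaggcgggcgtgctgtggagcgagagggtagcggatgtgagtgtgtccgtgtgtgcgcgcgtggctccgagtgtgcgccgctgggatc
Cxcl12: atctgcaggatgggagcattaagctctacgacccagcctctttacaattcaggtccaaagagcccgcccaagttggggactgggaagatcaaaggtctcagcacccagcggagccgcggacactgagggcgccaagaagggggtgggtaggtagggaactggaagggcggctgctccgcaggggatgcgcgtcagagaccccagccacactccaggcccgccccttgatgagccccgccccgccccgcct

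In the Cxcl10 promoter the interferon motif starts 213 bases before the gene start and the NF-kB motif starts 159 and 104 bases before it. In the Cxcl2 promoter the NF-kB motif matches at 97, 96 and 78 bases before the start, and the first 2 matches overlap on opposite strands. Cxcl14 holds the interferon motif at 172 bases and the STAT motif TTCNNNGAA at 191 bases before the start. Of the 38 tested genes 26 had a promoter sequence, of which 6 held the NF-kB motif (Ccl9, Ccr3, Ccr6, Cxcl1, Cxcl10 and Cxcl2), against 5.31% of 27025 genes with a promoter of the same length. The interferon motif was present in 2 of 26 against 3.46%, the STAT motif in 2 of 26 (Ccr6 and Cxcl14) against 8.13%, and the motif TGATGNAA, bound by ATF4 with C/EBP partners, in 1 of 26 (Ccl27a) against 3.91%. Of the 6 genes with the NF-kB motif 2 were called between genotypes in refed liver, beside 8 of the 26 with a promoter sequence. The share over all tested genes was 11.9%. A match is a description of the letters only.

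The monocyte and macrophage CC genes were the role group with the most tested genes. Of these 9 genes 5 were called, all higher in the refed libraries labelled HRD1Alb (median log2 fold change 2.31). In all 9 both of these libraries were above both refed WT libraries, beside 30.7% of all tested genes. The CXC group that holds Cxcl12 had 4 of 8 called, 3 higher and 1 lower. Beside these and the groups below, 11.9% of all tested genes were called in refed liver (7.06% higher and 4.84% lower). Ccl2, the main ligand that brings monocytes out of the bone marrow and into tissue, was at 0.125 and 0.195 CPM in fasted WT, 0.723 and 0.780 in fasted HRD1Alb, 0.272 and 0.158 in refed WT, and 1.49 and 2.33 in the refed libraries labelled HRD1Alb. Its level in refed liver was 8.73-fold higher in the libraries labelled HRD1Alb (log2 fold change 3.13, SE 0.45, adjusted p = 0.0127). The 4 HRD1Alb libraries were all above the 4 WT libraries. Ccl7, which acts on the same cells and lies 10.1 kb from Ccl2, had 1 count in each refed WT library and 17 and 39 counts in the refed libraries labelled HRD1Alb. With 2 counts in all in the WT group, the ratio of 21.0 had a 95% counting interval of 5.55 to 178, and the fitted log2 fold change was 4.33 (SE 0.84, adjusted p = 0.0259). Intervals of this kind cover counting error only. In fasted liver Ccl7 had 1 and 2 counts in WT and 6 and 6 in HRD1Alb.

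Ccl5, a ligand of T cells, NK cells and monocytes, was at 0.523 and 0.779 CPM in fasted WT, 1.51 and 2.03 in fasted HRD1Alb, 0.815 and 0.631 in refed WT, and 2.67 and 4.56 in the refed libraries labelled HRD1Alb. The refed log2 fold change was 2.31 (SE 0.40, adjusted p = 0.0186), and here too the genotypes did not overlap in either feeding state. Ccl4, a CC ligand of monocytes, T cells and NK cells, was at 0.0748 and 0.122, 0.235 and 0.309, 0.148 and 0.131, and 0.660 and 0.899 CPM in the same order of groups (refed log2 fold change 2.45, SE 0.46, adjusted p = 0.0233). Its neighbour Ccl3, a ligand of CCR1, was at 0.0498 and 0.0973, 0.411 and 0.218, 0.148 and 0.263, and 0.609 and 0.856 CPM and missed the threshold in refed liver (log2 fold change 1.82, SE 0.53, adjusted p = 0.0661).

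Ccl6 and Ccl9 sit next to each other on chromosome 11 and are both ligands of CCR1, and their values differed. Ccl6 was at 6.03 and 3.72 CPM in fasted WT, 23.8 and 15.7 in fasted HRD1Alb, 4.15 and 3.99 in refed WT, and 12.4 and 24.3 in the refed libraries labelled HRD1Alb (refed log2 fold change 2.17, SE 0.40, adjusted p = 0.0224). Ccl9 was at 31.8 and 50.4, 45.7 and 45.0, 73.3 and 78.2, and 90.5 and 79.4 CPM, and its refed log2 fold change between genotypes was 0.16 (SE 0.22, adjusted p = 0.619). The HRD1Alb levels of Ccl6 thus stood above WT in both feeding states, whereas those of Ccl9 were separated by feeding. The difference between these genes was not tested. Ccr1, a receptor for these ligands, was at 0.0741 and 0.0788 CPM in refed WT and 0.508 and 0.548 CPM in the libraries labelled HRD1Alb (log2 fold change 2.74, SE 0.72, adjusted p = 0.0511). The refed WT values of Ccr1 were only 3 counts in each library.

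The CXC genes that are called homeostatic, since they are present without inflammation, held the single call in the other direction. Cxcl12 was at 431 and 600 CPM in fasted WT, 283 and 363 in fasted HRD1Alb, 677 and 692 in refed WT, and 244 and 261 in the refed libraries labelled HRD1Alb. In refed liver it was 2.71-fold lower in the libraries labelled HRD1Alb (log2 fold change -1.44, SE 0.21, adjusted p = 0.0137). In fasted liver the 2 genotypes did not overlap, but the test did not pass (log2 fold change -0.67, SE 0.21, adjusted p = 0.159). Cxcr4, its signalling receptor, had the opposite order, at 0.548 and 0.535 CPM in fasted WT, 1.74 and 1.98 in fasted HRD1Alb, 0.395 and 0.394 in refed WT, and 1.62 and 0.943 in the refed libraries labelled HRD1Alb (refed log2 fold change 1.70, SE 0.37, adjusted p = 0.0333). Cxcr7, the scavenging receptor for the same ligand, annotated as Ackr3, was at 0.698 and 1.70, 0.704 and 0.871, 0.791 and 0.867, and 1.68 and 0.899 CPM, with no call (refed adjusted p = 0.381).

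Cxcl16, a ligand that also exists in a membrane-bound form and binds CXCR6, had the smallest adjusted p of the chemokine genes in refed liver. It was at 4.04 and 4.65 CPM in fasted WT, 6.43 and 6.86 in fasted HRD1Alb, 4.30 and 4.18 in refed WT, and 10.5 and 13.6 in the refed libraries labelled HRD1Alb (refed log2 fold change 1.51, SE 0.21, adjusted p = 0.0122). Its exons share 552 bp with Zmynd15 on the other strand, and the counting is not stated to use strand, so reads of the pair may not be separated. Cxcr6 was at 0.692 and 0.473 CPM in refed WT and 0.795 and 1.12 CPM in the libraries labelled HRD1Alb (log2 fold change 0.71, SE 0.49, adjusted p = 0.334). Cxcl14, a CXC ligand of epithelial and stromal cells, was at 0.249 and 0.341, 1.51 and 1.14, 0.692 and 0.342, and 1.84 and 3.18 CPM in the 4 groups, without overlap between genotypes in either feeding state (refed log2 fold change 2.27, SE 0.46, adjusted p = 0.0286). Cxcl13, which guides B cells through CXCR5, had an adjusted p of 0.0991 in refed liver (log2 fold change 1.19, SE 0.42).

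Among the neutrophil-attracting genes, 3 of 7 were tested and 1 was called. Cxcl2 had 2 counts and 0 counts in the refed WT libraries against 22 and 17 in the libraries labelled HRD1Alb, a ratio of 14.6 with a 95% counting interval of 3.79 to 125 (fitted log2 fold change 3.74, SE 0.97, adjusted p = 0.0487). Cxcl1, the more abundant of the pair, was at 1.02 and 3.67 CPM in fasted WT, 1.97 and 1.36 in fasted HRD1Alb, 2.62 and 2.23 in refed WT, and 4.2 and 6.14 in the refed libraries labelled HRD1Alb. The refed groups did not overlap, and the test did not pass (log2 fold change 1.09, SE 0.54, adjusted p = 0.199). In fasted liver Cxcl2 had 1 and 3 counts in WT and 21 and 9 in HRD1Alb (log2 fold change 2.47, SE 0.88, adjusted p = 0.195).

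Of the 4 interferon-inducible CXC genes, all tested, 1 was called between genotypes in refed liver. Cxcl10 was at 1.32 and 1.73 CPM in fasted WT, 1.58 and 1.27 in fasted HRD1Alb, 4.13 and 4.41 in refed WT, and 7.68 and 10.9 in the refed libraries labelled HRD1Alb. The genotypes overlapped in fasted liver and not in refed liver (refed log2 fold change 1.12, SE 0.27, adjusted p = 0.0403). Cxcl11 lies 10.7 kb from Cxcl10 and was at 5.29 and 5.75 CPM in refed WT and 3.06 and 5.42 CPM in the libraries labelled HRD1Alb, which overlap (log2 fold change -0.38, SE 0.34, adjusted p = 0.435). Cxcl9 was at 3.66 and 2.90, 2.50 and 7.55, 5.06 and 3.0, and 4.92 and 19.6 CPM, where the last value is that of the library that stood apart (refed log2 fold change 1.60, SE 0.72, adjusted p = 0.165). Exons of Cxcl10 share 133 bp with Art3, and those of Cxcl11 share 1582 bp with Gm2673, both on the other strand. Their receptor Cxcr3 was at 0.469 and 0.342 CPM in refed WT and 0.643 and 1.16 CPM in the libraries labelled HRD1Alb (log2 fold change 1.14, SE 0.43, adjusted p = 0.115).

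In the remaining groups 2 genes were called. Ccl22, a ligand of CCR4 made by dendritic cells and macrophages, was at 0.0498 and 0.122 CPM in fasted WT, 0.254 and 0.309 in fasted HRD1Alb, 0.0247 and 0.158 in refed WT, and 1.15 and 1.10 in the refed libraries labelled HRD1Alb (refed log2 fold change 3.61, SE 0.66, adjusted p = 0.0224). The refed libraries labelled HRD1Alb were far above all others, while the refed WT values were only 1 and 6 counts. Cx3cr1, the fractalkine receptor of monocytes and macrophages, was at 0.374 and 1.46, 0.626 and 0.908, 0.321 and 0.315, and 2.05 and 1.97 CPM (refed log2 fold change 2.65, SE 0.62, adjusted p = 0.0387). Here the fasted groups overlapped, with fasted WT replicate 2 the highest of the 4. Its ligand Cx3cl1 was at 0.420 and 0.473 CPM in refed WT and 1.44 and 0.965 CPM in the libraries labelled HRD1Alb (log2 fold change 1.43, SE 0.47, adjusted p = 0.0846). Ccl24, an eosinophil ligand, was at 0.573 and 0.487, 1.09 and 1.05, 0.840 and 0.867, and 0.931 and 3.84 CPM, where the highest value is that of the library that stood apart (log2 fold change 1.47, SE 0.61, adjusted p = 0.139).

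None of the 7 tested lymphoid and mucosal CC genes was called in refed liver by edgeR, where 1 of the 7, Ccr7, had an unadjusted p under 0.05. Their median log2 fold change was -0.07. Ccl25, a ligand of gut-homing T cells, was at 3.46 and 2.85, 2.23 and 2.61, 4.67 and 4.47, and 3.18 and 3.93 CPM, and was lower in both HRD1Alb groups without overlap (refed log2 fold change -0.36, SE 0.24, adjusted p = 0.303). Its exons share 204 bp with Elavl1 on the other strand. Ccr7, the lymph node homing receptor, was at 0.247 and 0.105 CPM in refed WT and 0.592 and 0.768 CPM in the libraries labelled HRD1Alb (log2 fold change 1.92, SE 0.57, adjusted p = 0.0694). Ccl27a, a ligand of skin-homing T cells with the highest level per length of the group (0.859 CPM per kb in refed WT), was at 2.52 and 2.02, 2.03 and 2.87, 1.88 and 2.21, and 1.79 and 4.23 CPM, with overlap in both feeding states (refed log2 fold change 0.56, SE 0.42, adjusted p = 0.373). It has a near-identical copy, Ccl27b, and its counts are uncertain for that reason.

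**Figure D3:**
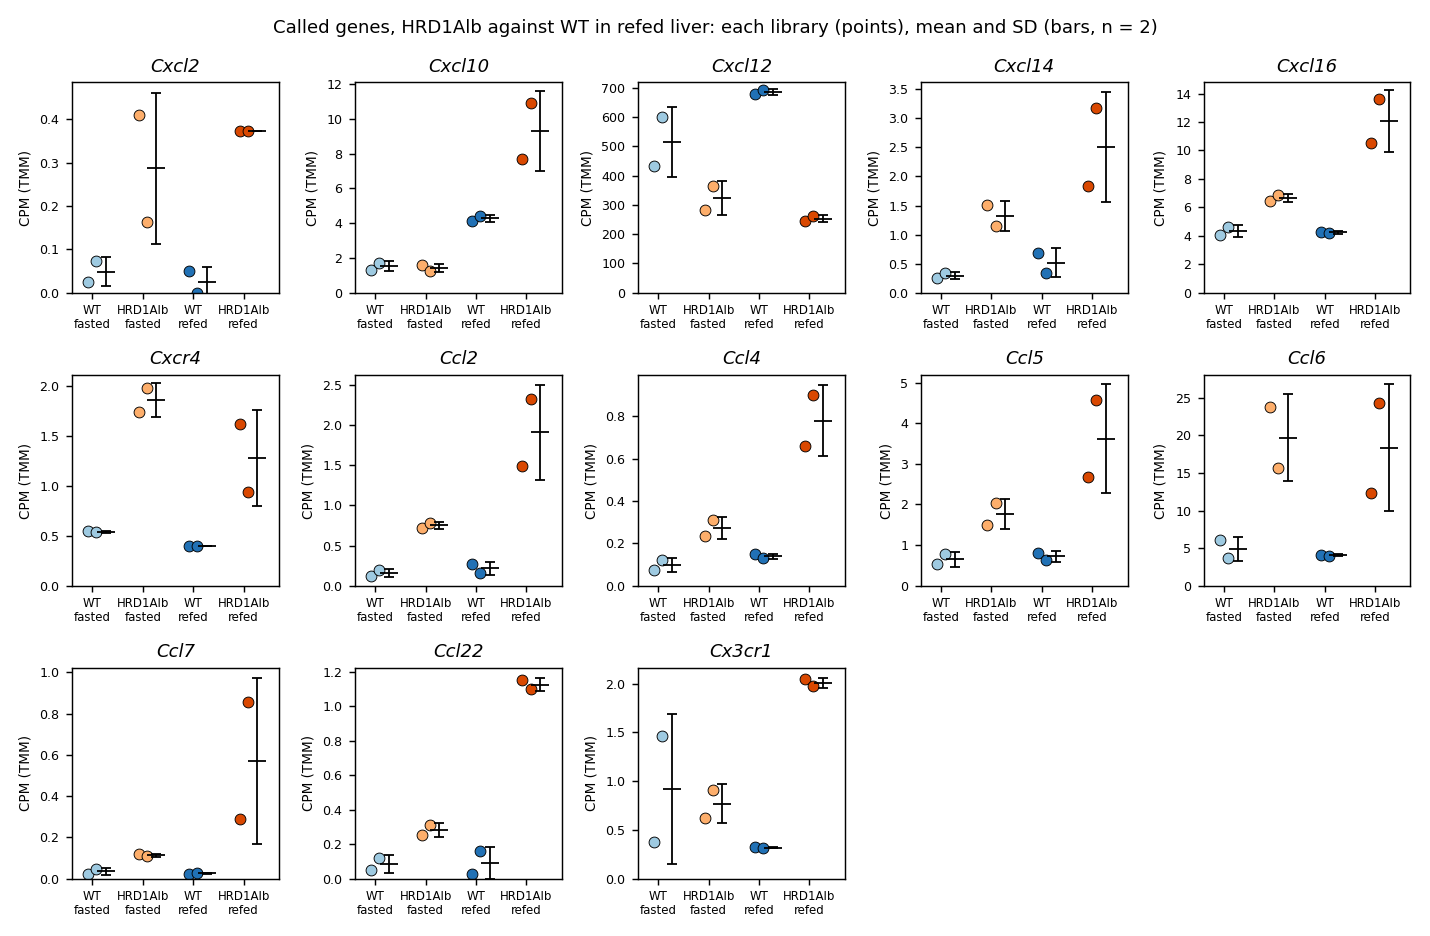
CPM of the 13 genes called between genotypes in refed liver, for each of the 8 libraries (points, 2 per group) with the mean and SD of each group (bars, n = 2). Cxcl12 is lowest in the refed libraries labelled HRD1Alb at 244 and 261 CPM, and the other 12 genes are higher there than in refed WT.

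In fasted liver the median log2 fold change between genotypes was 0.97 over the 38 genes and -0.02 over all genes tested, and 22 genes were higher and 2 lower in both HRD1Alb libraries than in both WT libraries, beside 30.7% and 34.2% of all tested genes. No gene of the chemokine system passed edgeR's adjusted threshold (0 of 38, beside 1.34% of all tested genes, 0.904% higher and 0.431% lower), while 14 had an unadjusted p under 0.05, 13 of them higher, beside 18.4% of all tested genes. DESeq2 called 7, all higher (7.56% of all tested genes), and limma-trend called 0, with 16 at an unadjusted p under 0.05. Leaving out either refed library labelled HRD1Alb, which takes no part in this comparison except through the shared spread, gave 10 of 37 and 10 of 36 calls (22.1% and 21.9% of all tested genes).

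The smallest adjusted p of the fasted comparison was 0.0590 for Ccl6 (log2 fold change 2.01, SE 0.40), followed by 5 other genes under 0.1, among them Ccl2, Ccr7, Cxcl14 and Cxcr4. For Cxcr4 the fasted log2 fold change was 1.77 (SE 0.36, adjusted p = 0.0640), and for Cxcl14 it was 2.15 (SE 0.49, adjusted p = 0.0820). For Ccr7 it was 2.38 (SE 0.57, adjusted p = 0.0927), with 0.174 and 0.146 CPM in WT and 0.547 and 1.14 CPM in HRD1Alb. In 20 genes both HRD1Alb libraries were above both WT libraries in the fasted as well as the refed state, beside 18.3% of all tested genes. For 8 genes this held in the refed state and not the fasted state, among them Cxcl10, Cx3cr1, Cxcl1 and Ccl9, and for 2 genes, Ccr3 and Ccr9, it held in the fasted state and not the refed state, beside 12.4% of all tested genes in either case.

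**Figure D4:**
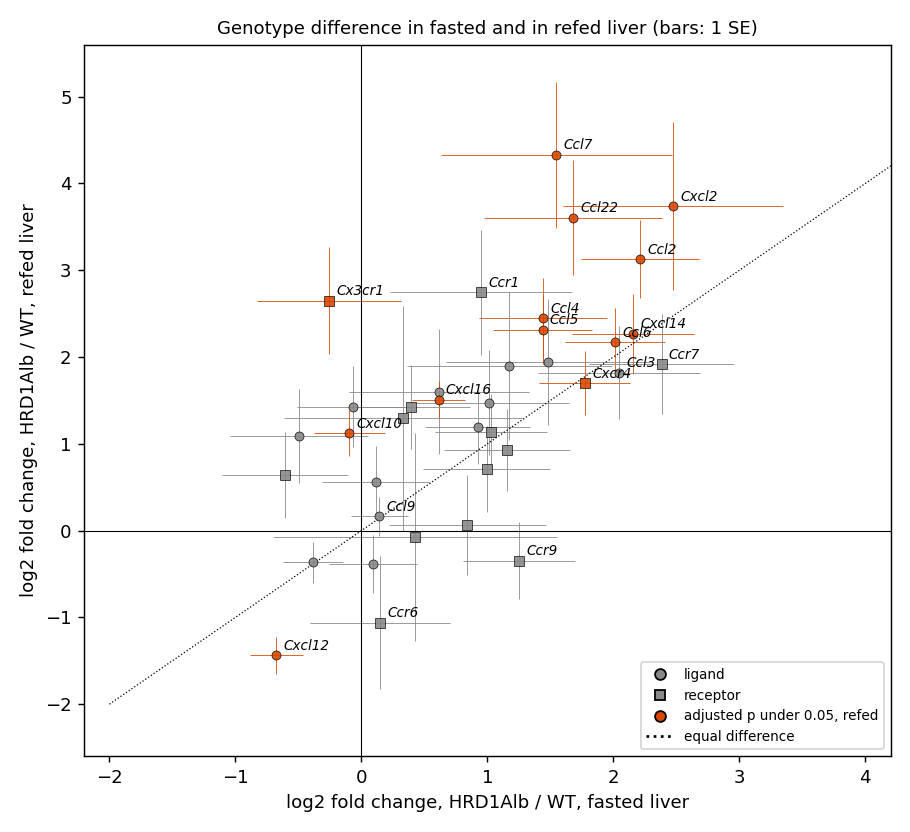
Log2 fold change of HRD1Alb over WT for 37 of the 38 tested genes in fasted liver (horizontal axis) and refed liver (vertical axis), with 1 SE in each direction, circles for ligands, squares for receptors, orange for genes called in refed liver, and a dotted line where both differences are equal. Cxcr4, Ccl6 and Cxcl14 lie near the line, Cx3cr1 and Cxcl10 lie near 0 in fasted liver and above 0 in refed liver, and Cxcl12 is below 0 on both axes.

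Whether the genotype difference depended on feeding was tested by the interaction term. No gene passed edgeR's adjusted threshold, among these 38 or among all 14379, where the background was 0%. Of the 38 genes 5 had an unadjusted p under 0.05 (8.42% of all tested genes did), which were Cx3cr1, Cxcl10 and Cxcl16 with a larger and Cxcl12 and Ccr9 with a smaller log2 fold change in refed liver. For Cx3cr1 the log2 difference was 2.91 (SE 0.84, adjusted p = 0.562), for Ccr9 it was -1.60 (SE 0.63, adjusted p = 0.584), and for Cxcl10 it was 1.22 (SE 0.39, adjusted p = 0.562). Exons of Ccr9 share 1932 bp with AC165425.1 on the other strand and 269 bp with Gm17200 on the same strand. Those of Cx3cr1 share 78 bp with Gm33858 on the other strand. Reads of these pairs may not be separated. Limma-trend called 0 of 38, with 6 at an unadjusted p under 0.05, and DESeq2 called 0 of the 12 to which it gave an adjusted p, with 4 of the 12 at an unadjusted p under 0.05. Leaving out refed HRD1Alb replicate 1 gave 3 of 37 calls by edgeR, where 34.4% of all tested genes were called.

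With refeeding in WT liver, Cxcl10 rose 2.80-fold (log2 fold change 1.48, SE 0.28, adjusted p = 0.0432) and was the 1 gene of 38 called, beside 2.59% of all tested genes (1.2% higher and 1.39% lower). An unadjusted p under 0.05 was found for 5 of the 38, beside 16.3%. Without refed HRD1Alb replicate 1 or 2 the count was 4 (17.9% and 17.7% of all tested genes), and without any 1 of the other 6 libraries it was 0. Its neighbour Cxcl11, at 2.49 and 1.56 CPM in fasted and 5.29 and 5.75 CPM in refed WT, had an adjusted p of 0.0890 (log2 fold change 1.45, SE 0.35), and Ccl9 an adjusted p of 0.104 (log2 fold change 0.88, SE 0.23). All 3 had no overlap between feeding states in WT. Over the 38 genes, 13 were higher and 5 lower in both refed than in both fasted WT libraries, beside 30.8% and 29.5% of all tested genes. The median log2 fold change of the 38 genes was 0.15 beside 0.00 for all genes tested.

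In HRD1Alb liver, where the refed libraries are those labelled HRD1Alb, refeeding raised 3 of the 38 genes, beside 10.4% of all tested genes (5.42% higher and 5.01% lower). Cxcl10 rose 6.5-fold (log2 fold change 2.70, SE 0.28, adjusted p = 0.00446), Ccl9 rose 1.87-fold (log2 fold change 0.91, SE 0.23, adjusted p = 0.0474) and Cxcl16 rose 1.81-fold (log2 fold change 0.86, SE 0.21, adjusted p = 0.0431). An unadjusted p under 0.05 was found for 13 of the 38, beside 31.6% of all tested genes. Over the 38 genes, 20 were higher and 5 lower in both refed than in both fasted libraries, beside 29.1% and 29.5%. Ccr6, a receptor of T helper and B cells, had the most negative log2 fold change, -2.30 (SE 0.67, adjusted p = 0.0678), from 0.293 and 0.200 CPM to 0.0508 and 0.0439 CPM. These values were 15 and 11 counts in fasted and only 3 and 2 counts in refed liver. Without refed HRD1Alb replicate 2 the count stayed at 3 of 36 and included the same 3 genes (20.2% of all tested genes), and without replicate 1 it was 15 of 37 (52.5%). With either fasted HRD1Alb library left out it was 0, and with either refed WT library left out it was 1. These comparisons and those between genotypes share libraries.

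Many of the genes lie in clusters on GRCm38 (GENCODE M21 positions). The CC ligand cluster on chromosome 11 (82035571 to 83664683) holds 11 of the 57 genes, of which 7 were tested and 5 called in refed liver. These 5 are the called genes of the monocyte and macrophage group above. Beside the counts of this and the other clusters, the share called over all tested genes was 11.9% (7.06% higher and 4.84% lower). Ccl2 and Ccl7, the tested genes at the first end of the chromosome 11 cluster, rose. Ccl1, Ccl8, Ccl11 and Ccl12 at this end had too few counts to test. At the other end Ccl5, Ccl6 and Ccl4 rose, while Ccl3 and Ccl9, the latter between Ccl5 and Ccl6, were not called. The CXC ligand cluster on chromosome 5 (90759360 to 92365485) holds 8 genes, of which 5 were tested and 2, Cxcl2 and Cxcl10, were called. Of 6 neighbouring receptor genes on chromosome 9 all were tested and 0 were called by edgeR, where 3, among them Ccr1 and Xcr1, had an unadjusted p under 0.05.

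**Figure D5:**
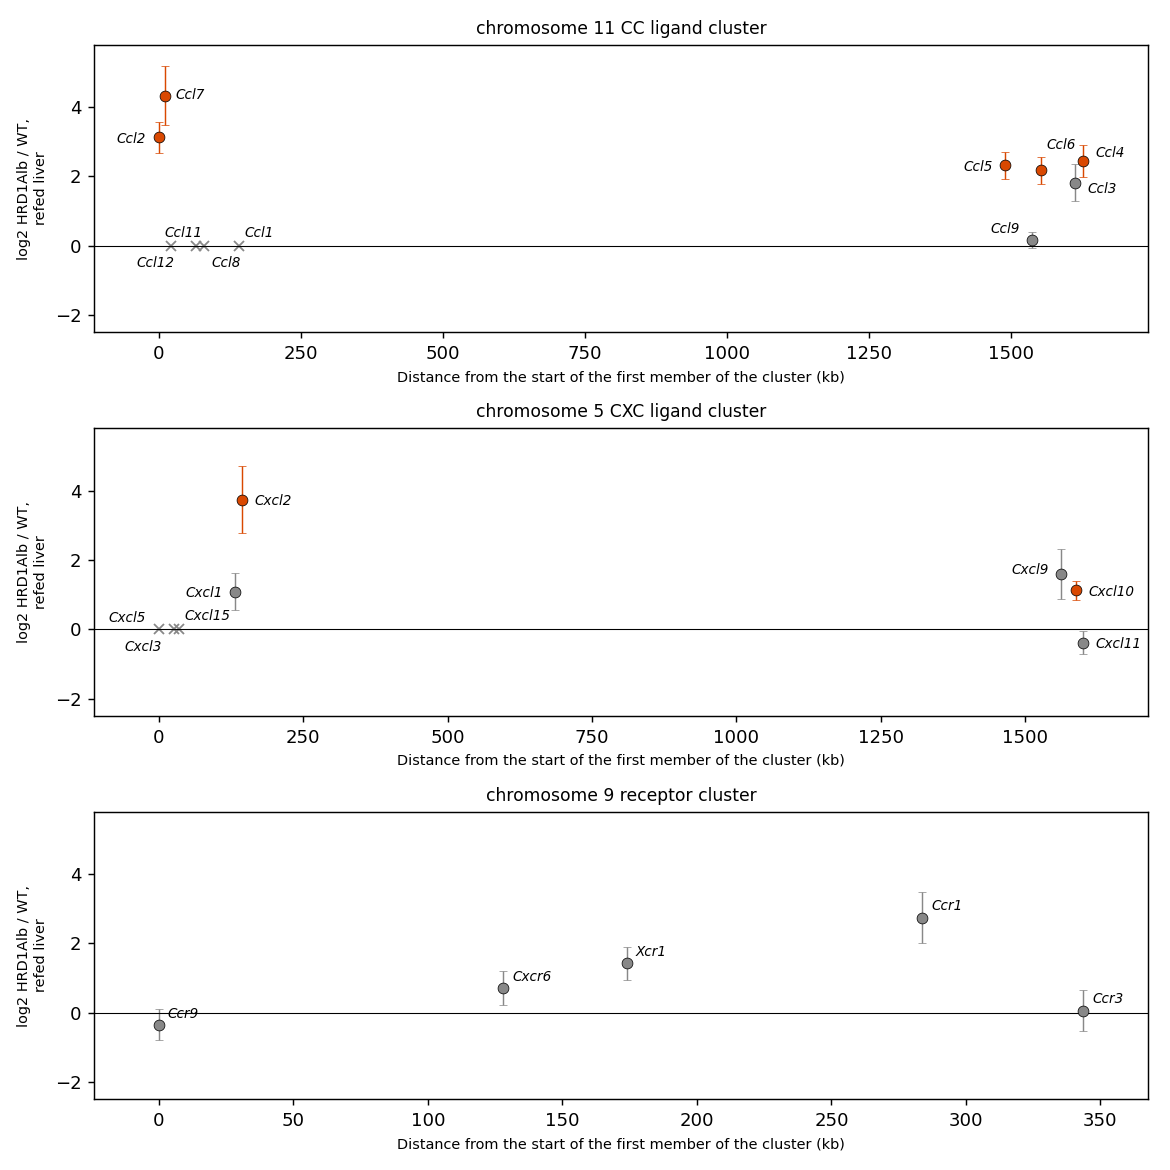
Log2 fold change of the libraries labelled HRD1Alb over WT in refed liver (vertical axis, bars 1 SE) along 3 gene clusters, by distance from the first gene in kb, with called genes in orange and genes with too few counts to test as crosses at 0. Ccl2 and Ccl7 are the highest at the start of the chromosome 11 cluster, and Ccl9 is close to 0 between Ccl5 and Ccl6.

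The other 19 genes had too few counts to test, with 14 as the highest count in any library. No count was present in any of the 8 libraries for 8 of them (Ccl21a, Ccl21b, Ccl21c, Ccl26, Ccl27b, Ccr8, Cxcl15 and Cxcl3), which at 3 counts allows up to 0.0611 to 0.0746 CPM per library. Ccl21a, Ccl21b and Ccl21c are near-identical copies, so their counts are uncertain. The remaining 11 were Ccl1, Ccl8, Ccl11, Ccl12, Ccl17, Ccl19, Ccl20, Cxcl5, Cxcl17, Cxcr2 and Ccr4.

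Genes that act with the chemokine system were counted from lists. Of all tested genes, 11.9% were called between genotypes in refed liver (7.06% higher and 4.84% lower). In fasted liver 1.34% were called (0.904% higher and 0.431% lower). Of 22 genes of receptor signalling 8 rose in the refed libraries labelled HRD1Alb, among them the Rac exchange factor Dock2, the leukocyte GTPase Rac2 and Vav1 (median log2 fold change 1.10), and 1, Vav1, rose in fasted HRD1Alb liver. Of 15 tested leukocyte adhesion genes 3 rose in refed liver. The endothelial adhesion molecule Vcam1 was at 3.66 and 4.55 CPM in refed WT and 17.6 and 17.5 CPM in the libraries labelled HRD1Alb (log2 fold change 2.10, adjusted p = 0.00861), and it rose in fasted liver as well, at 6.93 and 6.98 against 37.7 and 25.0 CPM (log2 fold change 2.17, adjusted p = 0.0172). The integrin subunit Itgb2 also rose in both states and Selplg in refed liver. Of 10 other chemokine-system genes 3 rose in refed liver (Cmtm3, Cmtm7 and Mif) and 1 fell (Cmtm6), the last at 118 and 107 CPM in WT against 59.4 and 52.1 CPM (log2 fold change -1.01, adjusted p = 0.0141).

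Of 19 tested NF-kB target genes outside the chemokine system 3 rose in refed liver (Relb, Vcam1 and Cebpd) and 0 fell. Of all tested genes 7.06% were called higher and 4.84% lower there. Vcam1 is in the list of adhesion genes as well. With refeeding in HRD1Alb liver 3 of the 19 rose (Nfkbib, Relb and Bcl3) and 2 fell (Nfkbia and Cebpd). The shares over all tested genes were 5.42% higher and 5.01% lower. In WT liver Bcl3 rose and Cebpd fell with refeeding, beside 1.2% and 1.39%. Of 20 interferon target genes edgeR called 0 between genotypes in refed liver, with 7 at an unadjusted p under 0.05, and 1, Irf9, fell in fasted HRD1Alb liver. With refeeding 7 of the 20 rose in HRD1Alb liver, beside 5.42% of all tested genes called higher. In WT 1 rose, beside 1.2%, and 19 of the 20 had a positive log2 fold change. All 20 had one in HRD1Alb liver. For the interaction edgeR called 0 of the 20, with 4 at an unadjusted p under 0.05. Isg15 was at 3.76 and 4.82 CPM in fasted WT, 2.91 and 2.81 in fasted HRD1Alb, 10.3 and 15.4 in refed WT, and 14.5 and 33.5 in the refed libraries labelled HRD1Alb (log2 fold change with refeeding in HRD1Alb 3.07, adjusted p = 0.0101). As for Cxcl10, both refed libraries were above both fasted libraries in each genotype.

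Leukocyte markers moved with these groups. The summed level of 6 pan-leukocyte genes was 25.0 to 25.7 CPM in fasted WT, 58.7 to 59.7 in fasted HRD1Alb, 25.3 to 28.3 in refed WT and 63.5 to 107 in the refed libraries labelled HRD1Alb. All 6 of them rose in refed liver and 1 in fasted liver, beside 7.06% and 0.904% of all tested genes called higher. The summed level of 13 monocyte and macrophage markers was 75.8 to 76.4, 177 to 242, 81.4 to 86.9 and 231 to 303 CPM, with 11 of 13 called higher in refed and 5 of 13 in fasted liver. Of 9 Kupffer cell markers 4 rose in refed liver, C6 fell, and the summed level, of which C6 is a large share in WT, overlapped between genotypes (426 to 517 CPM in refed WT and 340 to 601 CPM in the libraries labelled HRD1Alb).

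Of 10 stellate cell or fibroblast markers 5 rose in refed liver, beside 7.06% of all tested genes called higher. So did 2 of 10 T cell markers, 2 of 7 NK cell markers and 1 of 5 neutrophil markers. Of 7 B cell, 7 dendritic cell, 7 cholangiocyte and 9 endothelial markers edgeR called 0 in refed liver, with 1, 2, 1 and 0 at an unadjusted p under 0.05. The summed level of 10 hepatocyte markers was 153046 to 167455 CPM in fasted WT, 102002 to 102221 in fasted HRD1Alb, 120458 to 130090 in refed WT and 73077 to 118114 in the refed libraries labelled HRD1Alb, and edgeR called 0 of 10 between genotypes in refed liver, with 2 at an unadjusted p under 0.05. The defining markers of hepatocytes were thus present in every library, and of 5 red cell markers in the files 4 haemoglobin genes were at 0 in every library while Alas2, the erythroid enzyme of haem synthesis, was at 20.0 to 105 CPM. The symbols Hbb-bs and Hbb-bt were not in the files, and the haemoglobin counts of 0 were not read as absence of red cells. The part of the marked cell types in the chemokine differences was not tested.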

How the data were processed

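RNA-seq libraries of total hepatic RNA, 8 in all, were sequenced by the authors on an Illumina NextSeq instrument, 1 lane per sample. The deposited files hold raw read counts per gene symbol, 1 file per sample, which the authors did not normalize. The study's methods name ERANGE for counting and limma for testing, whereas the submitters' processing notes name cutadapt, STAR, HTSeq, DESeq2 and build mm10 without versions or roles. The counting is not stated to use strand.

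Groups were taken from the labels. The main test used edgeR 4.0.16 (R 4.3.3), with TMM scaling (factors 0.837 to 1.22), 1 quasi-likelihood fit with the 4 groups, common dispersion 0.0573, median prior degrees of freedom 3.38, and Benjamini-Hochberg adjustment over all 14379 genes with 10 or more counts in at least 2 samples. A gene was called at an adjusted p under 0.05. Each SE was obtained from the log2 fold change and its F statistic (size of the change over root F). The script was tested on simulated data. Total counts per library ranged from 40210576 to 49117080. Positions and merged exon lengths came from GENCODE M21, found for 56 of the 57 genes, and promoters from RefSeq on GRCm38.p6. Motifs were searched on both strands. Figures were drawn in Python with matplotlib.

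The genes and lists were chosen with earlier results of these data known. Values in every sample are given for genes called in any comparison and for the gene with the highest mean CPM of each role group, and further genes were named after their values were seen. The excepted gene and the values of some other genes are not reported here. Alternatives were RLE scaling and no scaling, 3 other filters, DESeq2 1.42.0, limma-trend (limma 3.58.1), only the samples of a comparison, a block for the replicate number, and leaving out single libraries. An offset for exon length was added after the data were seen. The labels give no batches, and none could be compared.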

Additional observations from a re-analysis of the deposited data

How the results depend on the processing

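Between genotypes in refed liver (13 of 38 called with all 8 libraries), a filter of 10 or more counts in every sample left 23 genes and 8 calls (12.3% of all tested genes), and a fit of the 4 refed libraries alone gave 0 calls (0% of all). The replicate number as a block gave 11 calls (9.63% of all). The exon length offset gave 13 calls (16.8% of all), of which 11 were among the 13, and a median log2 fold change of 1.27 in place of 1.43. DESeq2 gave 14 calls (22.3% of all), of which 11 were among the 13. In fasted liver (0 called) no scaling gave 8, no filter on low counts 1, DESeq2 7, the exon length offset 3 and the 4 fasted libraries alone 7 (6.15%, 1.79%, 7.56%, 4.0% and 14.6% of all tested genes). For refeeding in WT (1 called), DESeq2 gave 3, the 4 WT libraries alone 3 and the replicate block 0 (7.52%, 13.9% and 2.1% of all). For refeeding in HRD1Alb (3 called), DESeq2 gave 6, the 4 HRD1Alb libraries alone 0 and the replicate block 1 (20.5%, 0% and 9.33% of all). The exon length offset gave 3 there, 2 higher and 1 lower (14.7% of all), of which 2 were among the 3. With each library left out in turn, the counts ranged from 0 to 21 between genotypes in refed liver, from 0 to 10 in fasted liver, from 0 to 4 for refeeding in WT, from 0 to 15 for refeeding in HRD1Alb and from 0 to 3 for the interaction. The share of all tested genes ranged with them, from 0.00697% to 53.8%, 0% to 22.1%, 0% to 17.9%, 0.105% to 52.5% and 0% to 34.4% in the same order. A lone remaining sample was assumed to vary like the other groups. The cause of these changes was not tested.

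Over the 17 called values and 18 alternatives, 203 of 299 stayed past the threshold, 96 kept their direction and lost it, and 0 changed direction. RLE scaling, edgeR's own filter, no filter and limma-trend each kept all 17 calls. Without scaling beyond the total count, the median of all tested genes shifted to 0.36 in fasted and 0.26 in refed liver (log2, HRD1Alb over WT), 17 of the 38 genes were called in refed liver (16 higher and 1 lower), and the median of the 38 genes exceeded that of all genes by 1.0 in fasted and 1.37 in refed liver, beside 1.0 and 1.38 with TMM. The share of higher genes among all called genes moved with it, from 59.3% to 87.5% in refed and from 67.7% to 94.7% in fasted liver. Samples with the same replicate number correlated weakly in their deviations from the group means (r from 0.018 to 0.17 over 6 pairs of groups), so the numbers were not taken as pairs. The 2 samples per group, and few counts for genes such as Ccl7, Cxcl2, Ccl22, Ccr1 and Ccr6, limit the precision.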
